A study of Homo sapiens with 12 samples.

Results

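DUSP5, SPRY2, DKK1, LFNG and SGK1, 5 genes that restrain or tune growth factor, Wnt and Notch signalling, were followed in Huh7 cells, an established human hepatoma line. They were taken by symbol from 2 deposited tables of gene expression, which hold 1939 distinct gene entries in all. The genes were chosen by their fold changes and q-values in those same tables, so their changes are given as a description and carry no test of their own. All 5 were in the table of the clone with the mutant G398S form of A1CF, which has 1863 rows, and 1 of them, SGK1, was also in the table of the wild-type (WT) clone, which has 142 rows. A1CF is an RNA-binding protein known as the cofactor of apolipoprotein B mRNA editing. Each clone carried a construct that doxycycline switches on, and each was grown with the drug (WT doxycycline, G398S doxycycline) or without it (WT no doxycycline, G398S no doxycycline). The labels list 3 libraries for each of the 4 groups, 12 in all, and do not say whether they came from separate cultures. The study asked how the 2 proteins diverge in lipid metabolism. Each construct was represented by 1 clone and no group had doxycycline without a construct, so the effects of the drug, the clone and the induced protein cannot be told apart.

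Signalling pathways are commonly limited by inhibitors that the pathway itself induces. Growth factor receptors act through RAS to the ERK kinases, and ERK activity raises transcription of its own brakes, the dual-specificity phosphatase DUSP5 and the receptor-proximal inhibitor SPRY2. Wnt ligands stabilise beta-catenin, which with TCF/LEF factors activates genes that include the secreted Wnt antagonist DKK1. In the liver, Wnt signalling is known for setting the metabolic zones of the lobule, and Notch for directing cells to the biliary fate. LFNG is a Golgi glycosyltransferase that adds N-acetylglucosamine to Notch receptors and changes which ligands they answer to. SGK1 is a kinase related to AKT whose mRNA is induced by serum and by glucocorticoids.

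To show the DNA before their starts, sequences were read from RefSeq promoters on GRCh38.p14, which held windows for 4 of the 5 genes. The 250 bases before each start are given, without transcribed sequence of that start. DKK1 is shown because its single window (chr10:52314031-52314280, plus strand) held 2 copies of the TCF/LEF core CTTTGA. The outermost SPRY2 window (chr13:80341127-80341376, minus strand) and the innermost one (chr13:80339660-80339909, minus strand) are shown because they differ in these letters. None of the 3 windows overlapped an exon of a coding transcript in GENCODE release 29. Capitals mark the TCF/LEF core, read as CTTTGA or TCAAAG, and the ETS core, read as CCGGAA or TTCCGG.
DKK1: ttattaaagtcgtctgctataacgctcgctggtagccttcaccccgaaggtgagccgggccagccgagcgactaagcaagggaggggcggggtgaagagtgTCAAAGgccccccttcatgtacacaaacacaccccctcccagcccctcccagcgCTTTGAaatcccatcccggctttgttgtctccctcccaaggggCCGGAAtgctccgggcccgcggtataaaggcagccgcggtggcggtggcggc
SPRY2 outermost: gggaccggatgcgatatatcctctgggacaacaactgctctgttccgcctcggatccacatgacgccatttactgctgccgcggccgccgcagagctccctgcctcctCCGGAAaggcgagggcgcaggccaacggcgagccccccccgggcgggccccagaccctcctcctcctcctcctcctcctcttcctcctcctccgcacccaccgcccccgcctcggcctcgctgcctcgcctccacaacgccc
SPRY2 innermost: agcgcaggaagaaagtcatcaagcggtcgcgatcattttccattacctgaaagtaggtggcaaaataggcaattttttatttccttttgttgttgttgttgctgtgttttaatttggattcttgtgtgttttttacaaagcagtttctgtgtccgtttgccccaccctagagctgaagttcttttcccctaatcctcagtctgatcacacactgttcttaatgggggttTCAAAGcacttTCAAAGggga

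In DKK1 the TCF/LEF letters began 149 and 95 bases before the start, and the ETS letters 52 bases before it. In the innermost SPRY2 window the TCF/LEF letters began 21 and 10 bases before the start, and in the outermost window the ETS letters began 142 bases before it. Over both strands, 11.2% of the 35116 RefSeq windows of this length held CTTTGA at least once and 0.977% held it at least 2 times, while 14.5% held CCGGAA. The middle SPRY2 window, both LFNG windows and all 3 SGK1 windows had no CTTTGA. Of the SGK1 windows, 1 had the ETS letters, reading TTCCGG, 194 bases before its start. The AP-1 letters TGANTCA and the cyclic AMP response core TGACGT, in 6.57% and 7.1% of all windows, were in no window of the 4 genes. The glucocorticoid response core AGAACA, in 12.4% of all windows, was in the middle and innermost SPRY2 windows and not in those of SGK1. A loose form of the serum response factor motif was in 73.7% of all windows, so its presence in 7 of the 9 windows here says little, and in the outermost SPRY2 window 1 of its matches overlapped the ETS letters. A match is a run of letters and not a shown binding site.

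The authors' group values, in FPKM, sequenced fragments per unit of transcript length and of library size, show the size of the change. Each group has 1 pooled value with no spread attached. A call here means a q-value of at most 0.05 in the authors' deposited table, and all rows analysed meet it. In the G398S table the ranks behind the q-values imply that 12.4% of 17072 tested genes were called. Rows lower with doxycycline made up 5.86% of the tested genes and rows higher 5.06%. All 5 genes were lower with doxycycline in that table, a count that the choice of the genes fixes. For the WT clone 1.14% of 15109 tested genes were called, with 0.569% lower and 0.371% higher among the rows analysed. DUSP5, SPRY2, DKK1 and LFNG were not analysed in the WT clone, and this says nothing about whether they changed there. A lower value in bulk RNA can come from fewer cells expressing a gene or from less RNA per cell, and these cannot be told apart.

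**Figure D1:**
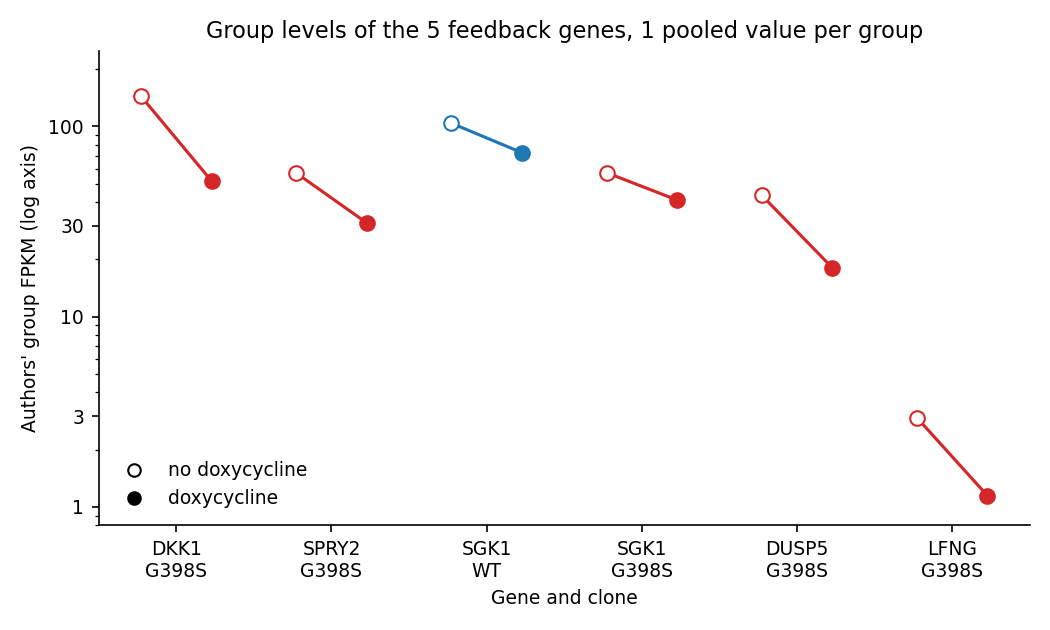
Authors' group FPKM (log axis) of each gene without doxycycline (open) and with it (filled), in the G398S clone (red) and, for SGK1, the WT clone (blue). Every line runs downwards, from DKK1 at 144 to 51.7 FPKM down to LFNG at 2.94 to 1.15 FPKM.

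The 2 inhibitors of the ERK pathway fell by different amounts. DUSP5 (hg19 chromosome 10, 112257625 to 112271302), the nuclear phosphatase that switches off ERK, went from 43.5 FPKM without doxycycline to 18.1 FPKM with it in the G398S clone. It kept 41.6% of its uninduced level, a 2.40-fold fall, and ranked 32 by log2 fold change among the 1000 falls. SPRY2 (hg19 chromosome 13, 80910112 to 80915086), which acts between receptor and RAS, went from 56.9 to 31.1 FPKM and kept 54.7%. Per transcript length SPRY2 was the more abundant of the pair in both groups, and it lost the smaller share. Its fall was 1.83-fold and ranked 111.

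The Wnt antagonist DKK1 (hg19 chromosome 10, 54074041 to 54077417), which binds the Wnt coreceptors LRP5 and LRP6, had the highest level of the 5 genes and the largest change. It went from 144 FPKM without doxycycline to 51.7 FPKM with it. The fall was 2.79-fold, the 11th among the 1000 falls, and 95.5% of the rows had a lower uninduced FPKM than DKK1. Among 130 rows with at least 100 FPKM without doxycycline, 2 fell by 1 or more on the log2 scale (DKK1 and TM4SF1), as the plot of all rows shows. These are called rows only and DKK1 was chosen by its fold change, so the count does not show that DKK1 is unusual for its level.

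LFNG (hg19 chromosome 7, 2552163 to 2568810) was the lowest of the 5 genes. It went from 2.94 to 1.15 FPKM, a 2.57-fold fall that ranked 17. Only 26.3% of the rows had a lower uninduced FPKM. Its log2 fold change was -1.36, or -0.88 after adding 1 FPKM to each group, while those of DKK1, DUSP5 and SPRY2 moved by less than 1 implied standard error.

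SGK1 (hg19 chromosome 6, 134490384 to 134639196) had the smallest change and was the gene seen in both clones. In the G398S clone it went from 57.2 to 41.0 FPKM and kept 71.8%, ranking 488 among the falls. In the WT clone it went from 104 to 72.8 FPKM and kept 70.0%, ranking 85 of 86 falls. For WT the authors' deposited table gave it a p of 0.0003 and q = 0.0296. For G398S the authors' deposited table gave it a p of 5e-05 and q = 0.00104. The log2 fold changes were -0.51 in WT and -0.48 in G398S. Their difference, G398S minus WT, was 0.04 with an interval of -0.57 to 0.64 at 95% taken from the test statistics. The same fold changes helped choose SGK1, so this interval is a description and shows neither a difference between clones nor its absence. The WT level was 1.82-fold the G398S level without doxycycline and 1.77-fold with it, a side-by-side reading of tables that were normalised separately.

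The order of uninduced levels in the G398S clone was DKK1, SGK1, SPRY2, DUSP5 and LFNG, with SGK1 and SPRY2 next to each other at 57.2 and 56.9 FPKM. With doxycycline it was DKK1, SGK1, SPRY2, DUSP5 and LFNG again, with DKK1 at 51.7 FPKM and SGK1 at 41.0 FPKM. No spread between libraries is at hand to say which neighbours in this order differ. A standard error implied by the authors' test statistic was 0.18 on the log2 scale for DKK1 and SGK1, 0.19 for DUSP5 and SPRY2 and 0.32 for LFNG in the G398S clone, and 0.25 for SGK1 in WT. These errors are approximate, since the statistic of SGK1 in G398S would give a normal p of 0.00929 where the authors' deposited table has 5e-05. All 5 genes had the smallest p-value that the authors' deposited table for G398S holds, 5e-05, with q = 0.00104, as did 735 of its 1863 rows. Their median log2 fold change was -1.26, beside -0.32 over all rows and -0.47 over the falls, which describes how they were chosen.

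**Figure D2:**
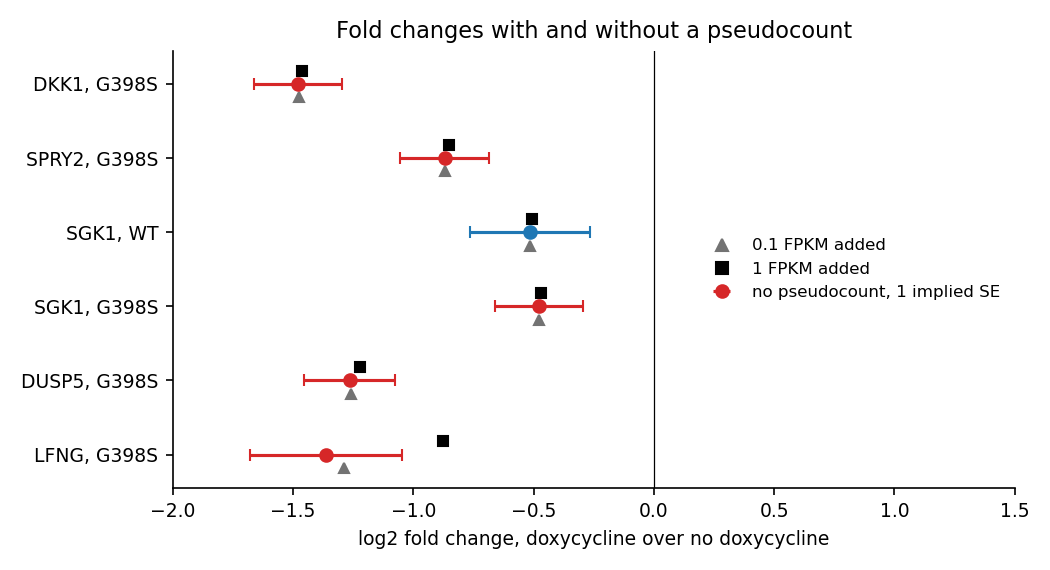
Log2 fold change of each gene, doxycycline over no doxycycline, with no pseudocount (circle, bar of 1 standard error implied by the authors' test statistic), with 0.1 FPKM added (triangle) and with 1 FPKM added (square). The square of LFNG, at -0.88, lies outside its bar, and those of the other genes lie inside theirs.

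**Figure D3:**
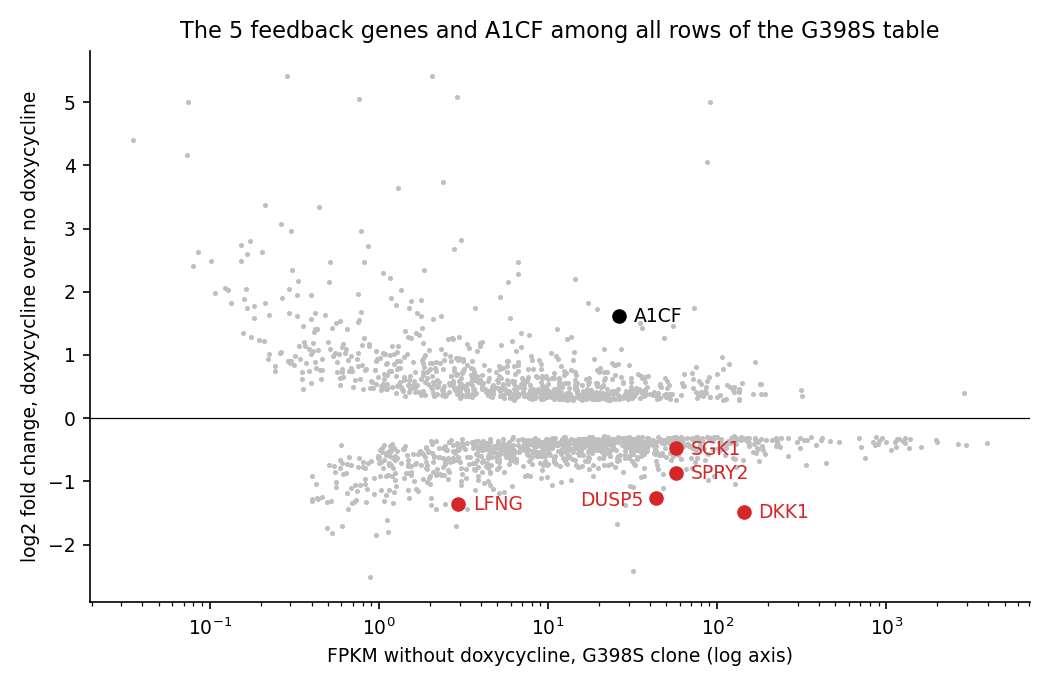
All 1863 rows of the G398S table (grey) by uninduced FPKM (log axis) and log2 fold change, with the 5 genes in red and A1CF in black. DKK1, at 144 FPKM and -1.48, lies below almost all rows of like level, a place its choice by fold change favours. SGK1, at -0.48, lies within the dense band of falls.

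A1CF, the induced gene, rose in both clones, 1.70-fold in WT (19.5 to 33.2 FPKM) and 3.08-fold in G398S (26.3 to 80.9 FPKM). It lies on the same chromosome as DKK1 and DUSP5, with 1.43 Mb between it and DKK1 and 59.6 Mb between it and DUSP5. Within 5 Mb of the DKK1 start, the G398S table held 4 other rows. A1CF, the sphingomyelin synthase SGMS1 and the ferritin receptor NCOA4 were higher, and the mannose-binding lectin MBL2, at 1.11 to 0.586 FPKM, was lower. MBL2 starts 451 kb from DKK1 and its change in the authors' deposited table was -0.92 on the log2 scale. The same window around LFNG held 8 lower rows and 1 higher, that around DUSP5 1 lower and 6 higher, and that around SGK1 7 lower and 6 higher. EDNRB and RBM26, both higher, were the 2 rows near SPRY2. Of all rows 53.7% were lower, and how many genes were tested in each window is not known, so these small counts are a description only. These neighbours were looked up by position and named after their values were seen.

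Of the 22 genes on a list of ERK feedback inhibitors, 5 fell and 2 rose in the G398S clone, shares of 22.7% and 9.09% beside 5.86% and 5.06% of all tested genes. The list holds DUSP5 and SPRY2, which were chosen for their falls, so the lower share is raised in part by that choice. Of its other 20 genes, 3 fell and 2 rose. DUSP4, another nuclear phosphatase, fell from 15.6 to 11.2 FPKM, and DUSP6, the cytoplasmic ERK phosphatase, fell from 16.7 to 13.3 FPKM. SPRY1, a paralog of SPRY2, fell from 17.5 to 12.9 FPKM. DUSP16, a phosphatase that prefers JNK, rose from 9.15 to 11.4 FPKM, and ERRFI1, a direct inhibitor of the EGF receptor, rose from 81.4 to 105 FPKM. The falls of DUSP4, DUSP6 and SPRY1 were 1.39-fold or less. DUSP5 and SPRY2 had larger folds, but they were chosen by fold change, so this order is no result about the list. DUSP9 and DUSP26, family members outside the list and named after their values were seen, went from 150.3 to 120.8 FPKM and from 3.13 to 5.83 FPKM.

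Among 36 transcription factors and effectors that ERK is known to induce, 6 fell and none rose (16.7% lower). The shares of all tested genes were 5.86% lower and 5.06% higher, and in a list this short few rises would be counted at such a share. CCND1, cyclin D1, fell from 74.7 to 51.7 FPKM and the ETS factor ETV4 fell from 5.84 to 3.92 FPKM. IER3 fell 1.35-fold and PHLDA2 fell 3.05-fold, the latter from 1.12 FPKM. Of 22 growth factor ligands 5 fell (22.7%) and 1 rose (4.55%), beside the same shares of all tested genes. GDF15, a stress-induced cytokine, fell from 30.7 to 14.5 FPKM, and the EGF receptor ligands AREG and BTC fell 1.85-fold and 1.76-fold. FGF2 rose from 2.07 to 3.78 FPKM.

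Growth factor receptors and adaptors were evenly divided, 3 lower and 3 higher of 25 (12.0% each, beside 5.86% and 5.06% of all tested genes). FGFR3, a receptor for fibroblast growth factors, fell from 35.5 to 18.6 FPKM and PDGFRA fell from 2.38 to 1.39 FPKM. The adaptors GRB2 and IRS2 rose 1.30-fold and 1.52-fold. Of 17 core kinases and RAS genes, the scaffold KSR1 was the 1 gene called, and it rose from 0.794 to 1.42 FPKM. That is 5.88%, beside 10.9% of all tested genes called and analysed here.

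On the Wnt side, DKK1 and DKK3 were the 2 called genes of 20 antagonists, both lower. This 10% is near the 10.9% of all tested genes that were called and analysed here. Without DKK1, which was chosen for its fall, 1 of 19 was called. DKK3, a divergent relative, fell from 11.9 to 8.42 FPKM. Of 51 ligands, receptors and core components 5 fell (9.8%) and 1 rose. The coreceptor LRP5, to which DKK1 binds, fell from 31.2 to 19.4 FPKM. The frizzled receptors FZD8 and FZD2 fell 1.54-fold and 1.35-fold, and the transducer DVL1 fell 1.34-fold. Of 26 beta-catenin target genes, 2 fell and 1 rose, near the share of all tested genes (7.69% lower beside 5.86%). CCND1 is given above, SOX9 fell from 1.24 to 0.782 FPKM, and CD44 rose from 0.431 to 1.15 FPKM.

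The Notch list, which holds LFNG, had 6 of 35 genes lower (17.1%) and 5 higher (14.3%), beside 5.86% and 5.06% of all tested genes. Without LFNG, which was chosen for its fall, 5 of 34 were lower and 5 higher. JAG1, a Notch ligand and the most abundant of these, fell from 176 to 109 FPKM, and the ligand DLL4 fell from 1.01 to 0.535 FPKM. The Notch target HES1 fell from 40.0 to 30.1 FPKM and POGLUT1, which adds glucose to Notch, fell from 8.71 to 5.76 FPKM. SOX9 was the sixth. Higher were ADAM10, the protease that cleaves activated Notch (62.2 to 91.4 FPKM), the Notch inhibitor NUMB (3.08 to 5.11 FPKM), the coactivator MAML2 (0.259 to 0.530 FPKM) and the DNA-binding partner RBPJ (19.5 to 24.1 FPKM). POFUT1, which adds the fucose that LFNG extends, shared its row with a microRNA gene and went from 30.9 to 41.5 FPKM.

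Of 20 genes of the SGK and AKT pathway, 3 fell (15.0%, SGK1 included) and 1 rose (5.0%) in the G398S clone. Without SGK1, 2 of 19 fell. SGK2, a paralog of SGK1, fell from 1.24 to 0.631 FPKM, AKT1 fell 1.27-fold, and the ubiquitin ligase NEDD4 rose 1.32-fold. Of 18 genes known to respond to glucocorticoids, SGK1 included, 8 fell (44.4%) and 2 rose (11.1%). For both lists, the shares over all tested genes were 5.86% lower and 5.06% higher. Without SGK1, 7 of 17 glucocorticoid genes fell and 2 rose. The 2 that rose were ERRFI1, given above, and NR3C1, from 31.1 to 40.4 FPKM, the latter named after its value was seen. The metallothionein MT1X fell from 142 to 89.6 FPKM and the transcription factor ZBTB16 fell from 2.83 to 1.94 FPKM. TSC22D3 and ANGPTL4 fell 1.45-fold and 1.67-fold from levels under 2 FPKM. Metallothionein genes are near-identical copies and counting could divide reads among them, so the MT1X value is uncertain. In the WT clone CEBPD, a transcription factor of this list, fell from 24.6 to 9.90 FPKM beside SGK1.

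Of 29 genes of TGF-beta and BMP feedback, 3 fell (10.3%) and 6 rose (20.7%) in the G398S clone. INHBE, an activin subunit made by hepatocytes, rose from 5.84 to 10.9 FPKM, and it rose from 12.9 to 20.3 FPKM in the WT clone. LTBP1, ID3 and SMAD6 fell 1.73-fold, 1.40-fold and 1.36-fold. ANKRD1 fell and LATS2 rose, each 1.29-fold to 1.30-fold, among 13 YAP and TEAD targets (7.69% each). Over the 13 lists, 46 of 316 distinct genes fell (14.6%) and 23 rose (7.28%), beside 5.86% and 5.06% of all tested genes. Without the 5 members the count was 41 lower and 23 higher of 311. The median log2 fold change of the 69 called rows was -0.47, beside -0.32 over all rows of the table. Those 69 rows include the 5 members, whose choice lowers that median in part. Of the lists, 2 genes were lower (0.633%) and 1 was higher (0.316%) in the WT table, near the 0.569% and 0.371% of all tested genes, and 1 of the 2 lower genes was SGK1 itself. How many list genes were tested is not known, and called genes need enough reads, so these shares describe the lists and give no test.

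**Figure D4:**
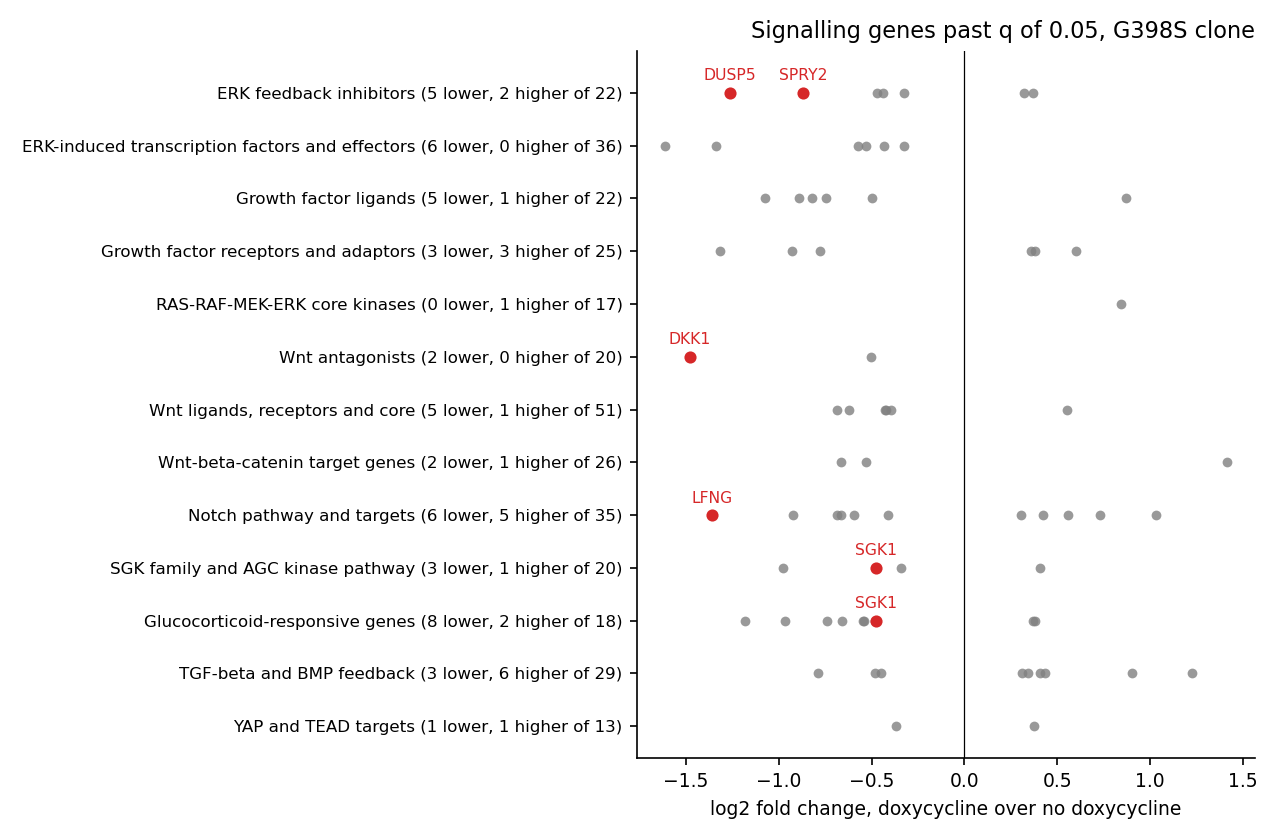
Log2 fold change in the G398S clone, doxycycline over no doxycycline, of every called gene of the 13 signalling lists, with the 5 genes in red and the number lower, higher and listed beside each name. The ERK feedback, ligand and glucocorticoid lists lie mostly to the left of 0, and the Notch and receptor lists lie on both sides.

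Genes with the most similar pair of group values were sought by distance between log2 FPKM values over the 2 groups of a table, which is a likeness of level and change only. For the G398S clone 1785 rows were compared. Nearest to DUSP5 were NPPB, FGFR3 and PKDCC (distances 0.262, 0.296 and 0.335), and nearest to SPRY2 were CXXC5, ADGRA3 and LOC654342 (0.145, 0.205 and 0.221). Nearest to DKK1 were TM4SF1, SLC39A14 and EPRS (0.318, 0.57 and 0.583). ABCG2, HTRA3 and IHH were nearest to LFNG (0.191, 0.282 and 0.333). Nearest to SGK1 were TRAF4, TMCO3 and BCAT1 (0.0204, 0.0259 and 0.0549). In the WT table KNG1, PI3 and SDC4 were nearest to SGK1 (0.0911, 0.29 and 0.37, over 135 rows).

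Short-lived mRNAs of feedback genes often carry AU-rich pentamers, ATTTA, in the untranslated region after the coding sequence. In the longest coding transcript of GENCODE release 29, SGK1 had 5 of them in 1022 bases, DKK1 3 in 850, SPRY2 2 in 782, LFNG 2 in 1217 and DUSP5 none in 1118. Per kilobase, SGK1 at 4.89 was above 90.5% and DKK1 at 3.53 above 78.4% of the G398S table's genes with a match. SPRY2 at 2.56 was above 62.3% and LFNG at 1.64 above 45.5%, and DUSP5 was above none. By plain count SGK1 was above 70.0% and DKK1 above 57.0%, so the 5 genes share no common level of these pentamers. The match covered 1688 of 1863 rows (90.6%). The 900 lower genes had a median of 1.29 per kilobase and the 788 higher genes 2.45. Transcript length differed along with direction, with a median of 2674.5 bases for lower and 3744.5 for higher genes, and the 5 genes ranged from 1790 to 3201 bases. The region after the coding sequence differed too, at a median of 687.5 bases for lower and 1718.5 for higher genes. Its median AU share was 51.8% for lower and 62.8% for higher genes. The part of transcript length and base composition in these changes and in the pentamer counts was not tested.

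For the labelled line, 12 hepatocyte markers were looked up. APOA1 and TF were in the G398S table, at 185 and 227 FPKM without doxycycline, and fell 1.42-fold and 1.28-fold. That is 16.7% lower, beside 5.86% of all tested genes. The other 10 were not analysed here, and none was in the WT table. All rows analysed are called genes, so a missing marker says nothing about its level, and the list cannot check the identity of the line.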

How the data were processed

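Total RNA libraries were made with a stranded kit that removes ribosomal and globin RNA, per the labels. Per the submitters' processing notes, the tools were STAR 2.5.0b, Cufflinks 2.2.1, Cuffdiff and bcl2fastq 2.9.1 and the build was hg19, with no settings or use of strand given. The 2 deposited tables hold genes marked significant. Per the file headers, each row gives an FPKM per group, which the authors pooled over libraries, a log2 fold change, the score on which the authors based their test (test statistic), and a p-value and q-value. Mutant groups carry a prefix in the file; the table with no prefix was read as WT because its deposited name says so. Library depth is unknown, and no interval from counts was made.

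Folds were recomputed from the deposited FPKM. The number tested is the smallest that makes every p-value times that number over its q-value a whole rank (15109 for WT, 17072 for G398S), a step tested on simulated data. The ranks imply 172 and 2114 calls, of which 142 and 1863 were analysed here. Implied standard errors are the log2 fold change over the test statistic, and the interval for SGK1 takes them as normal. File starts were read as counted from 0, and 1 was added. A row naming several genes counts for each of them. Promoters and transcripts were matched by symbol on GRCh38, and their coordinates were not mixed with hg19. The 5 genes, 13 signalling lists, motifs and naming rule were chosen with earlier results of these data known. The rule named all called genes of the ERK feedback, Wnt antagonist, Notch and SGK lists, up to 4 of each other list by size of change, given 1 FPKM or more in the higher group, and the 3 nearest rows to each gene. Alternatives were pseudocounts of 1 and 0.1 FPKM, a q of 0.01, at least 1 FPKM, a change of 1 or more on the log2 scale, single-gene rows, the next larger number tested, and standard errors from p-values. Python 3.11.15, pandas 2.3.3, numpy 2.4.6, scipy 1.17.1 and matplotlib 3.10.9 were used.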

Additional observations from a re-analysis of the deposited data

How the results depend on the processing

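Adding 1 FPKM to each group gave LFNG a log2 fold change of -0.88; with 0.1 or 1 FPKM added, those of the other 4 genes, in each clone where they were analysed, kept their sign and moved by less than 1 implied standard error. Limited to changes of 1 or more on the log2 scale, the signalling genes of the G398S clone numbered 8 lower and 3 higher, as most changes were smaller than that, and 3 of the 5 genes were left. In the WT clone 1 was lower and 0 higher at that limit, and 1 lower and 0 higher at a q of 0.01, which SGK1 did not meet. At a q of 0.01 all 5 genes stayed called in G398S. The share of tested genes called was the same with the next larger number tested, which the arithmetic fixes, so that recount is no check. It was 0.94% in WT and 10.9% in G398S when only the rows analysed here were counted. With standard errors from the p-values the SGK1 interval was -0.33 to 0.40. The p-value of SGK1 in G398S was the smallest held there and was shared by 735 rows. It can be a floor, so the standard error taken from it, and this interval, are rough. Single lists hold few genes, and 42 of 136 recounts by list or over the 5 genes moved by over 1.5 times. Some of the 136 start from a count of 0, which no stricter limit can move, so the unmoved recounts overstate stability. No paired analysis was possible because each group has 1 pooled value, and for the same reason no library could be left out. Depth and spread between libraries cannot be read from these files, which limits every comparison above.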
